A study of Mus musculus with 48 samples.

Results

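Ms4a1, Cd79a, Cd79b, Cd22, Pax5, Blk and Fcer2a are marker genes of B lymphocytes, and Zfp318 and Mcoln2 are 2 genes that lay among the largest falls under stress in mouse blood. These 9 genes were measured with 14 of the 55681 probes that are not controls. The 7 B cell genes were taken as textbook markers, with earlier results of these data known. Their tests are therefore not independent evidence. Zfp318 and Mcoln2 were chosen by the effect of stress in these same blood samples, so their stress values are given as a description without a test. The question was how far Zfp318 and Mcoln2 move together with the B cell genes, and how each of the 9 responds to stress and to loss of the ovaries.

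All mice were female C57BL/6J, 17 weeks old when killed. Control mice had a sham operation and no stress. CUMS mice had a sham operation and chronic ultra-mild stress, a repeated weekly schedule of mild disturbances such as a tilted or soiled cage, a small cage and altered light cycles. OVX mice had both ovaries removed and no stress, and OVX+CUMS mice had the ovaries removed and then the stress. Each group held 6 mice, and each mouse gave 1 array of blood cells and 1 of the medial prefrontal cortex (mPFC), 48 arrays in all. The blood RNA came from the whole cell pellet with no sorting, so fewer B cells and less RNA per B cell cannot be told apart.

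B lymphocytes carry a membrane antibody as their antigen receptor. Cd79a and Cd79b encode the paired signalling chains of that receptor, Blk a kinase of the Src family that acts below it, and Cd22 a sialic acid binding receptor that dampens it. Ms4a1 encodes CD20, a membrane protein of mature B cells and the target of antibodies used in the clinic. Fcer2a encodes CD23, the low-affinity receptor for IgE, found on resting mature B cells, and Pax5 encodes the transcription factor that keeps B cell identity. Zfp318 encodes a nuclear zinc finger protein needed for the messages that give mature B cells surface IgD. Mcoln2 encodes TRPML2, a cation channel of endosomes and lysosomes found mainly in lymphoid and myeloid cells.

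The values come from probes of 60 bases, and for 2 genes the result turned on which probe was read. The first 30 bases are shown for the 4 Zfp318 probes, which the array design assigns to different transcripts, and for the Mcoln2 probe. The lines give the gene, the transcript and the place of the whole probe on mm9, the build of the files.
Zfp318, NM_207671, chr17:46551614-46551673, plus strand: ctccttacccaacttattaccaccatactg
Zfp318, NM_207671, chr17:46550257-46550316, plus strand: ttgacctcttagctggaggaatgttgtctg
Zfp318, NM_021346, chr17:46557544-46557603, plus strand: gagaaagccctttcattttagctaccagga
Zfp318, NM_021346, chr17:46557427-46557486, plus strand: gaatgcagggatagaaaccacagagattat
Mcoln2, NM_026656, chr3:145858409-145858468, plus strand: gtggtggggatttgcccttgtcatggaagg
Cd79a had 2 probes that gave different results, and their last 30 bases are shown, with a closing run of A in capitals.
Cd79a, BC027633: gtgataataaatccttcccaaagcAAAAAA
Cd79a, NM_007655: gtacttacctccgcgtgcgcaatccagtcc
The first of these ends in a run of 6 A and is placed by the files on chr12:53180558-53180617, whereas the second is placed on chr7:25684357-25684614, and RefSeq (GRCm38.p6) has Cd79a on chromosome 7. No exon or UTR annotation of mm9 was used here.

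A value below is the log2 signal minus the 75th percentile of its array, a relative level within each probe and not comparable between probes. A probe was tested in a tissue when it was above background on all 24 arrays of that tissue. In blood 13 of the 14 probes, covering all 9 genes, were tested. The other, the second Pax5 probe, was above background on 7 of 24 arrays. Where a gene had several tested probes the brightest stands for it, and the others are given where they differ. The 75th percentile, before it was subtracted, ran from 54.9 to 192 units in blood. One array stood apart by its markers: the neutrophil list of OVX+CUMS replicate 5 lay 3.04 above its mean over all arrays on the log2 scale, against at most 0.49 on the other 23 arrays. CUMS replicate 2 was the dimmest blood array. Both are left out in turn where a result rests on them.

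The arrays lay on 3 slides of 8 that overlap with the groups. All 6 control arrays were on the first slide beside 2 of the CUMS group. The other 4 of the CUMS group were on slide 2 with 4 of the OVX group, and slide 3 took the last 2 of the OVX group and all 6 with both treatments. CUMS calls on the 7 B cell genes and OVX calls on the 9 genes are therefore also given with slide as a block. CUMS effects on the lists of other genes are given without it, so their dependence on slide is not shown. An effect is the mean difference over both levels of the other factor, from limma with Benjamini-Hochberg adjustment over all 20767 blood probes tested. Where groups are said below not to overlap, the share of all probes that separate the same groups was not counted. Such statements only describe the gene or list named. Control and OVX mice shared no slide, so a gap between them taken directly cannot be told apart from slide.

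In blood, 6 of the 7 B cell genes fell with CUMS, and Pax5 was not called. Here and in later counts and relations Cd79a stands by its brighter probe, which the files place on chromosome 12. Its probe on chromosome 7 was not called, so the signal of the brighter probe cannot be assigned to Cd79a with certainty. Signal fell by 24.9% for Ms4a1, the least of the 6, and fell by 34.3% for Fcer2a, the most. For comparison, 29.4% of all tested probes were called lower with CUMS, so lower calls were common, but the median effect over all probes was -0.03 and that over the 7 genes was -0.51 on the log2 scale. The 6 genes were called lower with slide as a block too, where 27.8% of all probes were. None was called higher, against 19.1% of all probes.

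**Figure D1:**
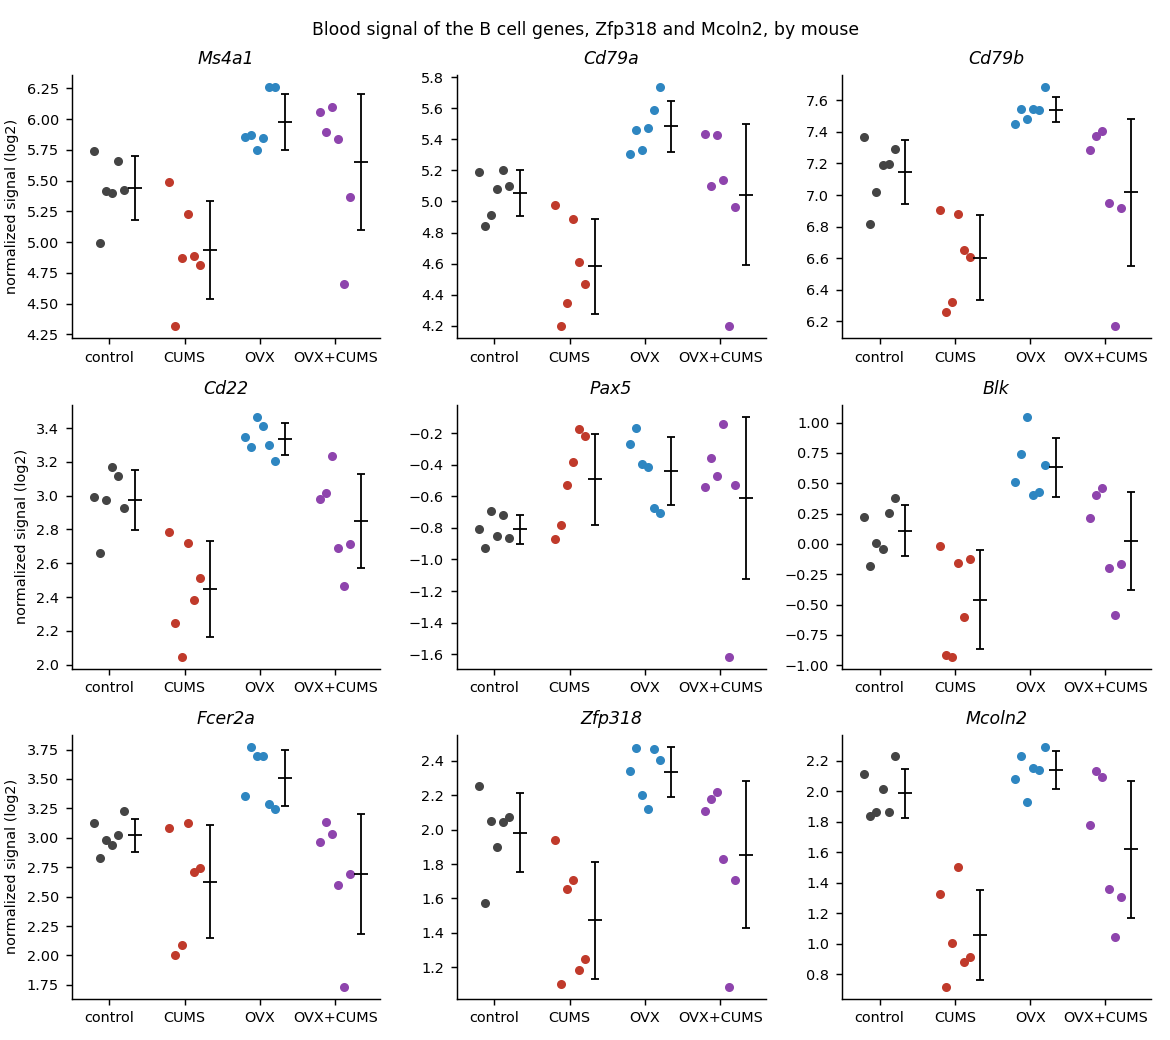
Normalized log2 signal in blood of the main probe of each of the 9 genes. Each point is 1 mouse, in groups of 6, and bars give the mean ± SD. In all panels but that of Pax5 the CUMS mice lie low and the OVX mice high, and OVX+CUMS replicate 5 is the lowest purple point.

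Cd79b, one of the receptor chains, ran from 6.82 to 7.37 in control mice (median 7.19), from 6.26 to 6.91 in CUMS mice (median 6.63), from 7.45 to 7.69 in OVX mice (median 7.54) and from 6.17 to 7.41 in OVX+CUMS mice (median 7.12). All 6 OVX+CUMS mice lay below all 6 OVX mice, and 4 of 6 CUMS mice lay below all control mice. The CUMS effect was -0.53 ± 0.12 (SE, adjusted p = 0.0020 in limma). Cd79a, by its brighter probe, averaged 5.48 ± 0.16 (SD, n = 6; median 5.47) in OVX mice, 5.05 ± 0.15 (median 5.09) with sham surgery alone, 5.04 ± 0.45 (median 5.12) with both treatments and 4.58 ± 0.30 (median 4.54) with stress alone. All OVX mice lay above all control mice, and 4 of 6 CUMS mice below them. The CUMS effect on that probe was -0.46 ± 0.12 (SE, adjusted p = 0.0048 in limma). The second Cd79a probe, the one placed on chromosome 7, was called for neither effect: CUMS -0.10 ± 0.09 (adjusted p = 0.35) and OVX 0.11 ± 0.09 (adjusted p = 0.30).

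Blk, the kinase, ran from -0.18 to 0.38 in control mice (median 0.12), from -0.93 to -0.02 in CUMS mice (median -0.38), from 0.40 to 1.05 in OVX mice (median 0.58) and from -0.58 to 0.46 in OVX+CUMS mice (median 0.03). All 6 OVX mice lay above all 6 control mice. The CUMS effect on Blk was -0.59 ± 0.13 (SE, adjusted p = 0.0022 in limma). Cd22, the dampening receptor, ran from 2.66 to 3.17 in control mice (median 2.98), from 2.05 to 2.79 in CUMS mice (median 2.45), from 3.20 to 3.47 in OVX mice (median 3.32) and from 2.47 to 3.24 in OVX+CUMS mice (median 2.85). Its CUMS effect was -0.51 ± 0.09 (SE, adjusted p = 0.0010 in limma), the smallest p among the 7 genes.

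Fcer2a, the gene of CD23, ran from 2.82 to 3.23 in control mice (median 3.01), from 2.01 to 3.13 in CUMS mice (median 2.72), from 3.25 to 3.77 in OVX mice (median 3.52) and from 1.73 to 3.13 in OVX+CUMS mice (median 2.83). All OVX+CUMS mice lay below all OVX mice. The CUMS effect was -0.61 ± 0.15 (SE, adjusted p = 0.0035 in limma), the largest fall among the 7 genes. Ms4a1, the gene of CD20, ran from 4.99 to 5.74 in control mice (median 5.42), from 4.32 to 5.49 in CUMS mice (median 4.88), from 5.75 to 6.27 in OVX mice (median 5.86) and from 4.66 to 6.09 in OVX+CUMS mice (median 5.87). Its CUMS effect was the smallest of the 6 called, -0.41 ± 0.15 (SE, adjusted p = 0.026 in limma). Without CUMS replicate 2 the effect on Ms4a1 was -0.35 with an adjusted p of 0.052, and 5 of 7 genes were then called.

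Pax5, with a mean signal of 79.2 units before scaling, ran from -0.92 to -0.69 in control mice (median -0.83), from -0.87 to -0.18 in CUMS mice (median -0.45), from -0.70 to -0.17 in OVX mice (median -0.40) and from -1.61 to -0.14 in OVX+CUMS mice (median -0.50). The CUMS effect was 0.07 ± 0.13 (SE, adjusted p = 0.64 in limma). The value at -1.61 belongs to OVX+CUMS replicate 5.

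Zfp318 and Mcoln2, like the 6 B cell genes, had their highest group mean in OVX mice and their lowest in CUMS mice. Mcoln2 ran from 1.84 to 2.23 in control mice (median 1.94), from 0.72 to 1.50 in CUMS mice (median 0.96), from 1.93 to 2.29 in OVX mice (median 2.15) and from 1.05 to 2.14 in OVX+CUMS mice (median 1.57). All 6 CUMS mice lay below all 6 control mice, and 4 of 6 OVX+CUMS mice lay below all OVX mice. The CUMS effect on Mcoln2, which chose it, was -0.72 ± 0.12 (SE), so its signal fell by 39.5%. It was -0.97 ± 0.20 on slide 1 alone, for 2 CUMS against 6 control mice, and -0.60 ± 0.29 on slide 3 alone, for 6 OVX+CUMS against 2 OVX mice.

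By their CUMS effect over all slides, the 4 probes of Zfp318 fell into pairs. By its brightest probe (NM_207671), Zfp318 ran from 1.57 to 2.25 in control mice (median 2.05), from 1.10 to 1.94 in CUMS mice (median 1.45), from 2.12 to 2.48 in OVX mice (median 2.37) and from 1.09 to 2.22 in OVX+CUMS mice (median 1.97). The CUMS effect was -0.50 ± 0.12 (SE) on this probe and -0.45 ± 0.12 on the other probe of NM_207671. Both lie within the range of the B cell genes. On the probes of NM_021346 it was -0.74 ± 0.13 and -0.72 ± 0.13. By the one at chr17:46557544-46557603, Zfp318 ran from 0.48 to 1.31 in control mice (median 0.99), from -0.29 to 0.63 in CUMS mice (median 0.12), from 1.19 to 1.59 in OVX mice (median 1.33) and from -0.06 to 1.10 in OVX+CUMS mice (median 0.77). The CUMS mice lie low on all 4 probes, and overlap with the control mice on each. Within slides 1 and 3 the pairs lay closer. On slide 1 the NM_207671 probes were at -0.46 and -0.42 and the NM_021346 probes at -0.60 and -0.51. On slide 3 those of NM_207671 were at -0.58 and -0.38 and those of NM_021346 at -0.62 and -0.58.

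Ranked by the size of the fall among all probes called, the 2 probes of NM_021346 stood at places 3 and 5 and Mcoln2 at place 4, with effects of -0.74, -0.72 and -0.72. The probe just before them, NAP111319-1, had -0.76, and the one just after, LOC100504348, had -0.72. The probes of NM_207671 stood far down the order. The brightest lay between Mrpl38 and 9330175E14Rik, all 3 at -0.50, and the other, at place 808, lay between Tbc1d10c and Brwd1, all 3 at -0.45.

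**Figure D2:**
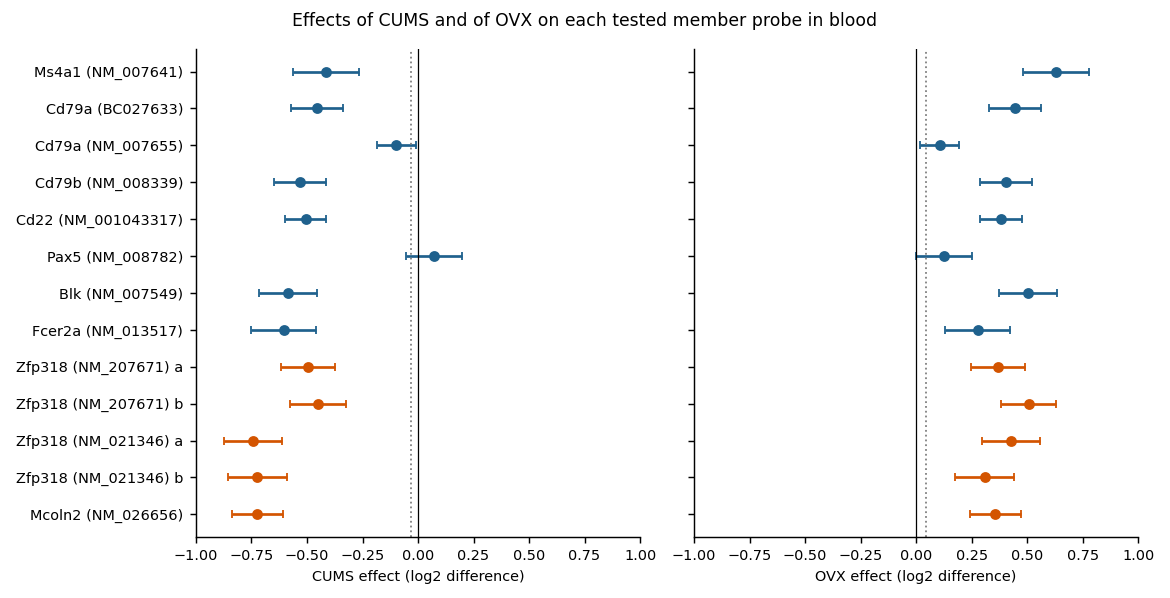
Effect of CUMS (left) and OVX (right) on the 13 tested probes of the 9 genes in blood, as log2 differences with SE bars. Blue marks the B cell genes and orange Zfp318 and Mcoln2, and the dotted line is the median over all tested probes. The 2 probes of Zfp318 NM_021346 and Mcoln2 lie at -0.72 or below with CUMS, and all points lie above 0 with OVX.

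With OVX, 7 of the 9 genes were called higher in blood, against 27.4% of all tested probes, and none was called lower. Ms4a1 rose most, by 0.63 ± 0.15 (SE, adjusted p = 0.0018 in limma), followed by Blk at 0.50 ± 0.13 (adjusted p = 0.0033) and Cd79a at 0.45 ± 0.12 (adjusted p = 0.0038). Cd79b rose by 0.40 ± 0.12 (adjusted p = 0.0066) and Cd22 by 0.38 ± 0.09 (adjusted p = 0.0022). Zfp318 rose by 0.37 ± 0.12 (adjusted p = 0.015) and Mcoln2 by 0.36 ± 0.12 (adjusted p = 0.013). All 4 Zfp318 probes were called higher, by 0.31 to 0.51, with adjusted p between 0.0023 and 0.0497. Fcer2a at 0.28 ± 0.15 (adjusted p = 0.11) and Pax5 at 0.13 ± 0.13 (adjusted p = 0.39) were not called. Without OVX+CUMS replicate 5, all 9 were called.

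The OVX result depended on the slide. With slide as a block, none of the 9 genes was called in limma, with 1 at an unadjusted p under 0.05 and adjusted p from 0.72 to 0.99. The same held for the whole array, where 0 of 20767 probes were called, with 1317 at an unadjusted p under 0.05. All 9 effects were still above 0, from 0.05 for Pax5 to 0.58 for Blk. No OVX and control mice shared a slide, so OVX and slide can be told apart only through the CUMS mice on slides 1 and 2 and the OVX mice on slides 2 and 3.

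No interaction of stress and surgery was called on the 9 genes (adjusted p from 0.33 to 0.98 in limma, 0 at an unadjusted p under 0.05), where 1.42% of all tested probes were called. The largest estimates were those of Pax5, -0.49 ± 0.25 (SE), Fcer2a, -0.42 ± 0.29, and Mcoln2, 0.41 ± 0.23. The mean of Mcoln2 differed by -0.93 between CUMS and control mice and by -0.52 between OVX+CUMS and OVX mice, and the interaction is the test of that gap (adjusted p = 0.38).

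On slide 2, 4 CUMS and 4 OVX mice can be compared with no slide difference, though they differ in both stress and surgery. There 6 of the 7 B cell genes were called lower in CUMS than in OVX mice, where 27.9% of all probes were. The differences ran from -1.13 ± 0.21 (SE, adjusted p = 0.0071 in limma) for Blk to -0.81 ± 0.14 (adjusted p = 0.0068) for Cd79a, and Pax5 was at -0.01 ± 0.13 (adjusted p = 0.93). Zfp318 by its brightest probe was at -0.84 ± 0.16 and Mcoln2 at -1.02 ± 0.16, given without a test since the contrast holds CUMS mice whose values chose them. Within slides 1 and 3, which hold 2 mice of 1 group, CUMS effects on the 6 genes ran from -0.40 to -0.62 and none was called in limma (adjusted p from 0.15 to 0.21), as was the case for all 20767 probes on each of these slides, with 6391 on slide 1 and 7625 on slide 3 at an unadjusted p under 0.05.

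Zfp318 and Mcoln2 were then related to the B cell genes mouse by mouse. Group means were removed first, so that differences between the groups play no part. Of 14 relations, 2 genes against 7 over 24 blood arrays, 12 were called by permutation within groups after Benjamini-Hochberg adjustment. Zfp318 went most closely with Ms4a1, with Pearson's r = 0.90 (permutation p = 1e-05, the smallest that 100000 resamples can give, adjusted p = 7e-05) and Spearman's rho = 0.86 (adjusted p = 0.00014). Mcoln2 went most closely with Cd79b, with r = 0.86 (permutation p = 1e-05, adjusted p = 7e-05) and rho = 0.85 (adjusted p = 0.00056). Mice with low Ms4a1 for their group had low Zfp318 as well. An r of this size was not rare among all probes for the weaker of the 12: the r of Zfp318 with Cd22 exceeded that with 85.7% of the 20767 tested probes, with Blk 88.1% and with Fcer2a 89.0%.

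**Figure D3:**
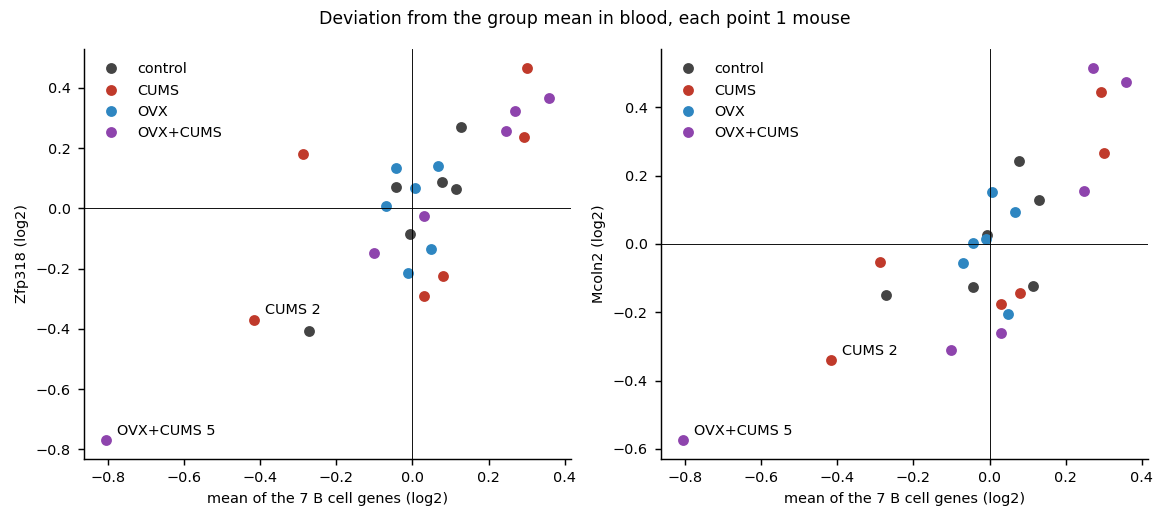
Deviation of Zfp318 (left) and Mcoln2 (right) from the group mean in blood, against that of the mean of the 7 B cell genes, in log2 units. Each point is 1 of 24 mice, coloured by group. The points rise together from OVX+CUMS replicate 5 at the lower left to OVX+CUMS and CUMS mice at the upper right, and the OVX mice sit close to 0 on the horizontal axis.

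For Zfp318, r was 0.83 with Cd79b (rho 0.71), 0.81 with Cd79a (rho 0.69), 0.67 with Fcer2a (rho 0.59), 0.66 with Blk (rho 0.61) and 0.62 with Cd22 (rho 0.54), with permutation p adjusted to between 0.00092 and 0.013. For Mcoln2, r was 0.77 with Ms4a1 (rho 0.78), 0.76 with Cd79a (rho 0.71), 0.74 with Fcer2a (rho 0.67), 0.71 with Blk (rho 0.63) and 0.68 with Cd22 (rho 0.65), with permutation p adjusted to between 0.00092 and 0.0073. Pax5 went with neither, at r = 0.38 (rho 0.09, adjusted permutation p = 0.20) for Zfp318 and r = 0.29 (rho 0.02, adjusted permutation p = 0.42) for Mcoln2. Removing the mean of each group on each slide left 12 relations called, with r from 0.65 to 0.92 for those 12.

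Without the 2 mice farthest from the median of each B cell gene, 10 of 14 relations were called, and those of Zfp318 with Blk (r = 0.45) and Fcer2a (r = 0.34) were not. Without OVX+CUMS replicate 5, 10 were called, and Zfp318 with Cd22 (r = 0.50, adjusted permutation p = 0.070) and with Fcer2a (r = 0.47, adjusted permutation p = 0.12) were not. Without CUMS replicate 2 as well, 8 were called. Zfp318 with Ms4a1 then had r = 0.82 and Mcoln2 with Cd79b r = 0.81, whereas Zfp318 with Blk (r = 0.47) and Mcoln2 with Cd22 (r = 0.56) were lost too. The relations to Ms4a1, Cd79a and Cd79b held for both genes in each of these settings.

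The groups differed in how much there was to relate. The mean of the 7 B cell genes spread by 0.05 (SD, n = 6) among OVX mice, 0.15 among control mice, 0.30 among CUMS mice and 0.43 among OVX+CUMS mice. Within OVX+CUMS mice, r of Zfp318 with the 7 genes ran from 0.82 to 1.00 (median 0.96), and within control mice from 0.59 to 0.93 (median 0.78). Within CUMS mice it ran from -0.41 to 0.86 (median 0.51), and within OVX mice from -0.80 to 0.60 (median -0.10). The medians for Mcoln2 were 0.87, 0.52, 0.78 and -0.25 in the same order. Of these 56 relations within a group, 5 were called by the exact permutation test after adjustment, all in OVX+CUMS mice and hence in the group of the array that stands apart. The adjusted p was 0.047 for each of the 5 (exact permutation test).

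The 4 Zfp318 probes were alike in this. Against the mean of the B cell genes, r over the 24 mice was 0.81 and 0.86 for the probes of NM_207671 and 0.76 and 0.76 for those of NM_021346, given as a description. The second Cd79a probe, in contrast to the first at 0.88, had r = 0.14 with the mean of the other B cell genes, and Pax5 had 0.51. Against the mean of 51 other B cell genes, r was 0.84 for Zfp318 and 0.85 for Mcoln2, and 0.76 and 0.79 without OVX+CUMS replicate 5. For comparison it was 0.94 for both Cd79a and Cd79b, 0.93 for Ms4a1, 0.84 for Fcer2a, 0.77 for Blk, 0.76 for Cd22 and 0.38 for Pax5, and 0.15 for the second Cd79a probe. Zfp318 and Mcoln2 lay below Ms4a1, Cd79a and Cd79b, near Fcer2a, and above Blk, Cd22 and Pax5. These values are a description, and which cells carried the Zfp318 and Mcoln2 messages was not tested.

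Genes of other cells were read in the same way. The median r with Zfp318 was 0.73 over the 51 other B cell genes, 0.71 over 18 T cell genes and 0.19 over 8 NK cell genes, and it was -0.51 over 11 neutrophil genes and -0.72 over 9 erythroid genes. Over all 20767 tested probes it was -0.04. For Mcoln2 these medians were 0.74, 0.64, 0.30, -0.34, -0.55 and -0.03. Without OVX+CUMS replicate 5, the median over neutrophil genes was 0.03 for Zfp318 and 0.14 for Mcoln2, and that over other B cell genes was 0.64 and 0.68. The T cell medians were then 0.59 and 0.53, those of NK cells 0.21 and 0.18, and the erythroid ones -0.62 and -0.39. In its r with Zfp318, Ms4a1 exceeded 99.8% of all probes, Cd79b 98.1%, Cd79a 97.2% and Pax5 72.1%, beside the 3 genes above. In its r with Mcoln2, Cd79b exceeded 99.4% of all probes, Ms4a1 94.8%, Cd79a 94.1%, Fcer2a 92.8%, Blk 90.2%, Cd22 88.2% and Pax5 65.8%. Without OVX+CUMS replicate 5, Ms4a1 still exceeded 97.8% of all probes for Zfp318 and Cd79b 98.3% for Mcoln2, and the other pairs lay between 39.3% and 86.3%. Zfp318 and Mcoln2 had r = 0.82 with each other.

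The 5 genes most like Zfp318 across all tested probes were Tspan32 (r = 0.94), Ttpal (0.94), Xkrx (0.94), Ebf1 (0.93) and Mllt6 (0.93), over 24 arrays after removal of group means. Ebf1 encodes a transcription factor that sets the B cell lineage, and Tspan32 a tetraspanin of blood cells. The 5 genes most like Mcoln2 were Unk (r = 0.93), Hmgn1 (0.92), Zkscan8 (0.92), Zfp512 (0.91) and Zfp329 (0.91), of which Hmgn1 encodes a nucleosome binding protein. None of the 10 is among the 7 B cell genes.

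The other B cell genes were read by role from fixed lists, 51 of 60 tested in blood. With CUMS, 37 of them were called lower, 3 higher and 11 not, with a median effect of -0.41 against -0.03 over all probes. Of all tested probes, 29.4% were called lower with CUMS and 19.1% higher. With OVX, 33 were called higher, 2 lower and 16 not, with a median of 0.36 against 0.04. Of all tested probes, 27.4% were called higher with OVX and 27.7% lower. Since no blood probe was called for OVX with slide as a block, none of the OVX calls given here and below for lists or single genes was kept there. The CUMS calls on these lists are given without the slide block. These lists were written with earlier results of the same arrays known and are not independent evidence.

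**Figure D4:**
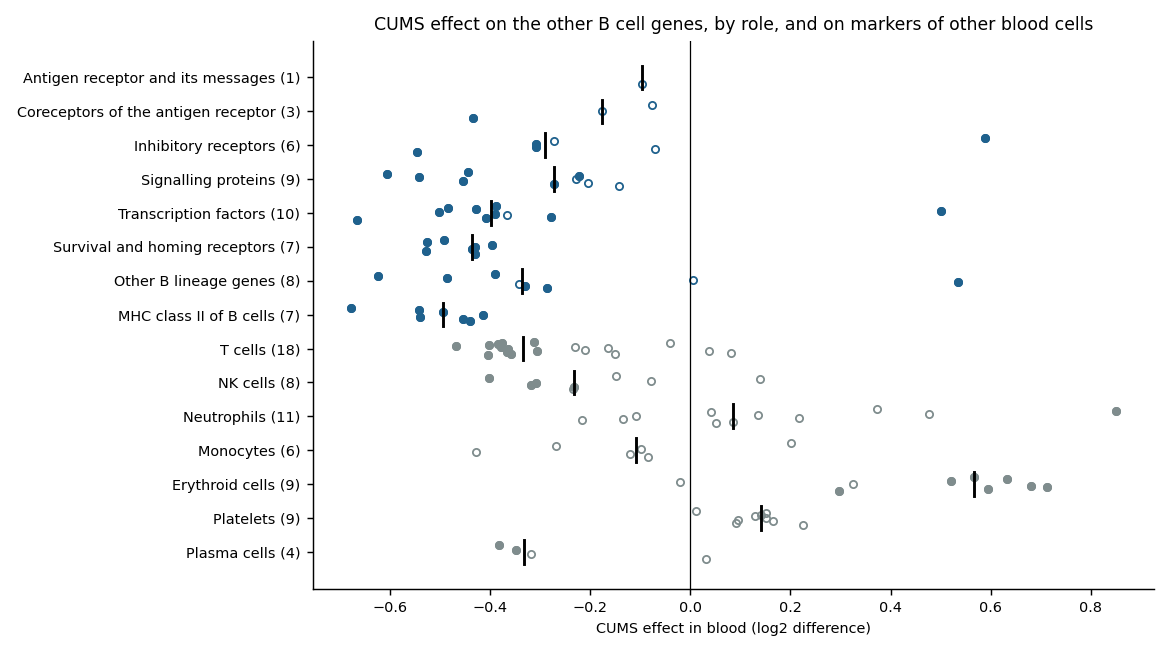
CUMS effect in blood, as a log2 difference, on the tested genes of each list, with the number of genes in brackets. Blue points are other B cell genes by role and grey points markers of other blood cells, filled where the adjusted p is under 0.05, and the black bar is the list's median. All 7 MHC class II genes and all 7 survival and homing receptors are filled and below 0, and 7 of 9 erythroid genes are filled and above 0.

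Among the transcription factors 8 of 10 were lower with CUMS, where 29.4% of all tested probes were. Ebf1 fell by 0.67 (adjusted p = 0.0015 in limma), Bach2, a repressor that holds B cells short of plasma cells, by 0.50 (adjusted p = 0.0052), and Ikzf3, the gene of Aiolos, rose by 0.50 (adjusted p = 0.0014). Pou2f2 fell by 0.28, and Spib was at -0.37 (adjusted p = 0.055) and not called. All 7 survival and homing receptors fell, from Tnfrsf13b, the TACI receptor (-0.53), and Fcmr, the IgM Fc receptor (-0.53), to Tnfrsf13c, the BAFF receptor (-0.43), and Ccr6 (-0.40). All 7 MHC class II genes fell, from H2-Ob (-0.68) and H2-DMb2 (-0.54), which act in peptide loading in B cells, to Cd74 (-0.44), the invariant chain, and H2-Ab1 (-0.41).

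The counts of the next lists stand beside 29.4% of all tested probes called lower with CUMS and 19.1% called higher. Of 9 signalling proteins tested, 6 were lower, among them Fcrla at -0.61 and Bank1 at -0.54, while Btk at -0.21 and Lyn at -0.14 were not called. Of 6 inhibitory receptors 3 were lower, with Cd72 at -0.55 and Fcgr2b at -0.31, and Lair1 was called higher at 0.59. Siglecg was at -0.07 and not called. Of 8 other B lineage genes 5 were lower, from Cd55 at -0.62 and Ly6d at -0.49, Cd24a was called higher at 0.53, and Cd38 was at 0.01. Cd24a and Lair1 are also found on other blood cells, Cd24a on red cell precursors and Lair1 on myeloid cells. Which cells gave the rises or the falls of the genes on these lists was not tested.

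Of the antigen receptor messages only Jchain was tested, at -0.10 ± 0.29 (adjusted p = 0.79). Igkc was not above background on all arrays, and Ighm and Ighd, the genes of IgM and IgD, have no probe by those names, so the IgD message that Zfp318 serves was not measured here. Of 4 plasma cell genes tested, Mzb1 (-0.38) and Irf4 (-0.35) were called lower, and Xbp1 (0.03) and Prdm1 (-0.32) were not. Of all tested probes, 29.4% were called lower with CUMS. The 2 relatives of Mcoln2 were read beside it. Mcoln1, the TRPML1 channel of most cells, fell by 0.31 with CUMS (adjusted p = 0.015) and rose by 0.24 with OVX (adjusted p = 0.0499), and Mcoln3 was at -0.03 with CUMS and 0.18 with OVX, with neither called.

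Markers of other blood cells moved too. Their counts stand beside 29.4% of all tested probes called lower with CUMS and 19.1% called higher. With CUMS, 11 of 18 T cell genes were lower and none higher, with a median of -0.34, among them Lef1 at -0.47 and Cd3d at -0.40, whereas Cd4 was at 0.08 and Cd8b1 at 0.04. Of 8 NK cell genes 4 were lower, with Tbx21 at -0.40 and Gzma at -0.32, and Eomes at 0.14 and Prf1 at -0.08 were not called. Of 9 erythroid genes 7 were higher and none lower, with a median of 0.57, from Slc4a1 at 0.71 and Epb42 at 0.68 to Alas2 at 0.30, and Ermap was at -0.02. Of 11 neutrophil genes 1, Camp at 0.85, was called, with Lcn2 at 0.48, Retnlg at -0.22 and Csf3r at -0.13 not called. None of 6 monocyte genes (Cx3cr1 -0.43, Ms4a6c -0.27, Csf1r -0.08, F13a1 0.20) and none of 9 platelet genes (Pf4 0.23, Itga2b 0.16, Ppbp 0.09, Gp6 0.01) was called.

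None of the 18 T cell genes and 8 NK cell genes was called higher with OVX, and 3 of each were called lower, where 27.7% of all tested probes were, among them Cd8b1 (-0.71), Cd4 (-0.61) and Eomes (-0.32). Of the 9 erythroid genes 6 were lower, with a median of -0.54. The mean of the T cell list ran from -0.09 to 0.38 in control mice and from 0.05 to 0.28 in OVX mice, and overlapped. That of the 7 B cell genes ran from -0.28 to 0.12 in control and from 0.37 to 0.51 in OVX mice and did not. The share of all probes that separate these groups was not counted, so both lists are only described. Control and OVX mice shared no slide, so a gap between them cannot be told apart from slide in this comparison. The erythroid mean ran from -0.52 to 0.87 in control, 0.18 to 1.13 in CUMS, -0.87 to 0.26 in OVX and -0.25 to 0.95 in OVX+CUMS mice. It was highest in CUMS and lowest in OVX mice, where the B cell genes were lowest and highest. The 75th percentile is set by all cells in the sample, and the part of the red cell messages in the values of the B cell genes was not tested. Scaled to the spike-in probes instead, all probes shifted by a median of -0.33 with CUMS and 0.39 with OVX, and the B cell genes by a median of -0.80 and 0.75.

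In mPFC, 4 of the 9 genes were tested by 7 probes. Ms4a1, Blk, Pax5, Fcer2a and Mcoln2 were not above background on all arrays there. Of these, Fcer2a was above background on 20 of 24 mPFC arrays, Mcoln2 on 6, Pax5 by its main probe on 3, Ms4a1 on 2 and Blk on 0. All 4 Zfp318 probes were above background on all mPFC arrays, as were the main probes of Cd79a, Cd79b and Cd22. By its brightest probe Zfp318 was at 1.26 ± 0.16 (SD, n = 6) in control, 1.17 ± 0.08 in CUMS, 1.37 ± 0.13 in OVX and 1.34 ± 0.04 in OVX+CUMS mice, on the scale of mPFC arrays, which is not that of blood.

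With CUMS none of the 4 genes was called in mPFC in limma, with 1 of 4, Cd79a at -0.63 (adjusted p = 0.082), at an unadjusted p under 0.05, where 4.19% of all probes were called. With OVX the main probes of all 4 were called, where 30.9% of all probes were, but not in 1 direction. Zfp318 by its brightest probe rose by 0.14 ± 0.05 (SE, adjusted p = 0.023), Cd79b rose by 0.31 ± 0.07 (adjusted p = 0.0029), Cd22 fell by 0.23 (adjusted p = 0.041) and Cd79a fell by 0.79 (adjusted p = 0.0078). This Cd79a probe is the one with the closing run of A that the files place on chromosome 12, so its mPFC signal cannot be assigned to Cd79a with certainty. With slide as a block none of the 4 was called (adjusted p from 0.96 to 0.98), and the estimates for Cd22 (0.05) and Cd79a (0.19) changed sign.

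The probe pairs of Zfp318 that the array design assigns to different transcripts were compared within each array. Whether each pair reads its transcript alone was not checked. The value compared is the mean of the NM_021346 probes minus that of the NM_207671 probes. The size of this value has no meaning, since probes differ in brightness, and only its change between groups is read. In blood it was -1.14 ± 0.14 (SD, n = 6) in control, -1.43 ± 0.27 in CUMS, -1.24 ± 0.19 in OVX and -1.47 ± 0.16 in OVX+CUMS mice, a CUMS change of -0.26 that belongs to the contrast that chose the gene and is not tested. With slide as a block it was -0.11, and it was -0.11 on slide 1 and -0.12 on slide 3. In mPFC it was -0.29 ± 0.07 in control, -0.06 ± 0.08 in CUMS, -0.21 ± 0.12 in OVX and -0.05 ± 0.15 in OVX+CUMS mice, a CUMS change of 0.19. The sign is the opposite of that in blood, and the difference between tissues was not tested. All 6 CUMS mice, from -0.146 to 0.041, lay narrowly above all 6 control mice, from -0.358 to -0.153. The OVX+CUMS mice, from -0.24 to 0.16, overlapped the OVX mice, from -0.40 to -0.06.

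**Figure D5:**
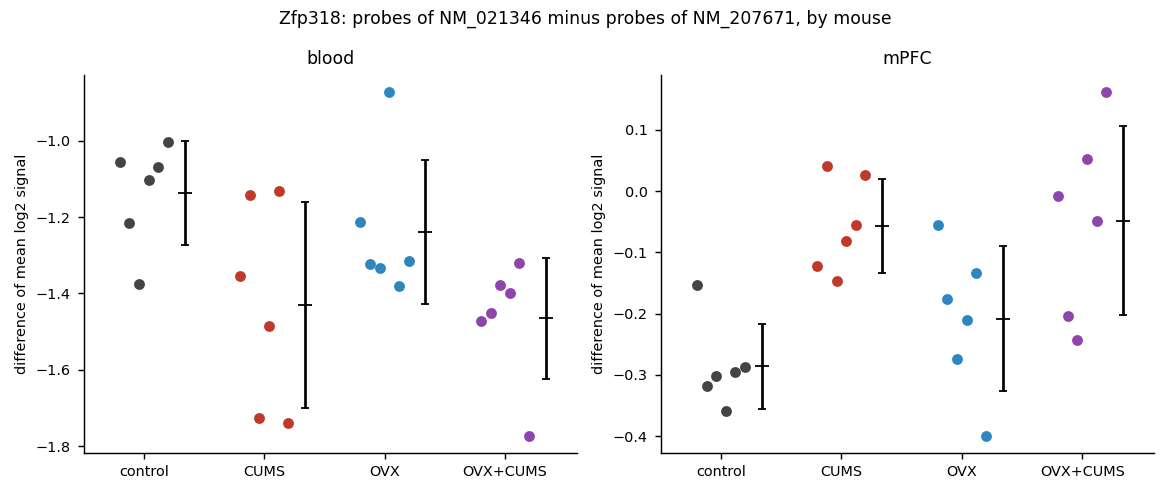
Mean log2 signal of the 2 Zfp318 probes of NM_021346 minus that of the 2 of NM_207671, in blood (left) and mPFC (right). Each point is 1 mouse and bars give the mean ± SD of 6. The stressed groups lie lower in blood and higher in mPFC.

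The mPFC change had p = 0.00043 in an exact two-sided permutation test of stress labels within each surgery group (853776 arrangements, adjusted p = 0.0013 over the 3 tests made here). The comparison and its test were chosen after the values had been seen. Labels were not kept within slides, where all 6 control arrays were on slide 1 and 4 CUMS arrays on slide 2. The p therefore cannot separate stress from slide. The mPFC change was 0.23 with slide as a block, 0.24 on slide 1 alone and 0.22 on slide 3 alone. The OVX change was -0.07 in blood (exact permutation p = 0.38, adjusted p = 0.38), which turned to 0.22 with slide as a block, and 0.04 in mPFC (exact permutation p = 0.34, adjusted p = 0.38). In mPFC the single probes were not called with CUMS: those of NM_021346 were at 0.13 each (adjusted p of 0.14 and 0.15 in limma) and those of NM_207671 at -0.06 and -0.08 (adjusted p = 0.46 for both).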

How the data were processed

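Blood and mPFC of the same 24 mice were measured on 48 1-colour Agilent mouse arrays with probes of 60 bases. The authors scanned the arrays and read the spots with Feature Extraction 10.7.3.1, and the deposited processed intensity has its background subtracted and is not scaled between arrays. The deposited log2 table holds the authors' values shifted to the 75th percentile, and 100% of 55249 probes with 1 spot were within 0.001 of those computed here up to a constant.

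Spots marked as uneven or outliers (98 to 206 per array) were left out, the rest averaged in log2, and each array's 75th percentile subtracted. No spot was saturated. Probes well above background numbered 23604 to 34857 on arrays of blood and 31589 to 38069 on those of mPFC. A tested probe was above background on all 24 arrays of the tissue and over 50 units on at least 2, which left 20767 probes in blood and 28358 in mPFC. The number of arrays limits the precision. Mice were housed in groups, and which mice shared a cage is not given in the sources used here.

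Effects were fitted with limma 3.58.1 in R 4.3.3 (surgery, stress and interaction, two-sided, adjusted p under 0.05), tested on simulated data first. Relations used Pearson's r and Spearman's rho of deviations from group means with 100000 permutations within groups (numpy 2.4.6). Symbols were updated through RefSeq where the transcript matched. Genes named are all members by each probe, the neighbours of Zfp318 and Mcoln2 in the order of falls, the 5 genes most like each of them, up to 4 genes per list with the highest and lowest CUMS effects, and Mcoln1, Mcoln3, Ighd and Ighm (Spib was named beside them after its value was seen). The coreceptor list is not reported here on its own. The members and the lists were chosen with earlier results of these data known. Alternatives were other background corrections, normalizations, filters and blocks, and leaving out each array. Leaving out both arrays that stand apart, and the comparison of Zfp318 probe pairs, were chosen after seeing the data.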

Additional observations from a re-analysis of the deposited data

Results flagged for a closer look

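Of 52 sets of 6 mice, 1 for each tested gene, group and tissue, 4 held an array far from the other 5 by Dixon's test, and chance alone gives about 1 in 20. Pax5 in blood was -1.61 in OVX+CUMS replicate 5, with the nearest mouse at -0.54, and this array also had the highest neutrophil genes and the lowest Cd79b. The other flagged values lay in mPFC. Cd79a in control replicate 6 was 0.039, with the nearest control mouse at -1.75, and in OVX replicate 4 it was -1.51, with the nearest OVX mouse at -2.68. Cd22 in control replicate 6 was -0.0061, with the nearest at 0.35, so the same mPFC array was high for Cd79a and low for Cd22. Without control replicate 6 the OVX effect on Cd79a in mPFC stayed below 0, and leaving out any 1 array gave effects from -0.90 to -0.63.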

How the results depend on the processing

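The count of B cell genes lower with CUMS in blood was 6 of 7 under normexp, quantile, percentile, spike-in and authors' values, under the methods' two-way ANOVA, the slide block and the replicate block, and 5 without the detection filter and without both arrays that stand apart. Leaving out each array gave 5 to 6. Pax5 with CUMS was -0.22 under the spike-in shift, which moved all probes down. Members changed with OVX in blood numbered 7, with 0 under the slide block, 9 under the spike-in shift and 7 to 9 when arrays were left out. No alternative called an interaction in blood, and leaving out each array gave 0. In mPFC, members changed with CUMS numbered 0, with 3 under the spike-in shift and 0 to 1 when arrays were left out (1 without CUMS replicate 2). Members changed with OVX in mPFC numbered 4, with 1 under normexp, 2 under the spike-in shift, 2 without the detection filter and 0 under the slide block, and 3 to 4 when arrays were left out. Under the slide block the OVX effects in mPFC were 0.19 for Cd79a and 0.052 for Cd22. The cause of these losses was not tested. Relations called numbered 12 of 14, with 14 under the spike-in shift, 8 without both arrays that stand apart, and 10 to 12 when arrays were left out. Replicate numbers share no mouse between groups: the correlation of deviations of same-numbered blood arrays ran from -0.51 to 0.49 over 36 pairs. With the replicate block 6 B cell genes were lower with CUMS and 7 members changed with OVX in blood, 4 changed with OVX in mPFC, and 12 relations were called, so it moved no count.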
